A study of Mus musculus with 24 samples.

Results

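The comparison is between ovariectomized and intact female mice that ate a high fat diet (HFD), as seen in the gene expression of the colon. It was made on 8 of the 24 arrays of the study, 4 labelled F + HFD and 4 labelled F(OVX) + HFD, and it took in all genes measured well enough to be tested. All mice were C57BL/6J and 7 weeks old on arrival. F mice had sham surgery and F(OVX) mice had both ovaries removed after 1 week of acclimatization, and feeding began after 14 days of recovery. HFD held 45% and the low fat diet (LFD) 10% of its calories as fat, and each was fed for 14 weeks. Every group, the comparison groups included, was given a single injection of the carcinogen azoxymethane (10 mg/kg) and 3 cycles of the colitis-inducing agent dextran sulfate sodium (1.5%), and the mice were killed 75 days after azoxymethane. The mice without ovaries are thus compared with sham-operated mice that had the same carcinogen and colitis, and no untreated colon was among the groups.

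The ovaries make most of the circulating estradiol and progesterone of a female mouse, and their removal also changes body fat and feeding. Estradiol acts through the nuclear receptors Esr1 and Esr2, which bind DNA and switch target genes on or off. In the colon Esr2 is found mainly in the epithelium and in enteric neurons. The distal colon is a layered tissue, with an epithelium of absorptive colonocytes and mucus-secreting goblet cells, a stroma of fibroblasts, vessels and immune cells, and a wall of smooth muscle in which the enteric nervous system lies, with fat attached on the outside. A piece of whole colon holds all of these. In such bulk RNA, fewer cells of a type and less RNA per cell cannot be told apart.

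The 4 F + HFD arrays lay on one slide and the 4 F(OVX) + HFD arrays on another, so slide and surgery cannot be told apart in any difference between these groups. Spike-in RNAs, added in equal amounts during labelling, were lower on the F(OVX) + HFD arrays by 0.31 to 0.66 on the log2 scale for the 8 brighter of 10 control probes as read. The dimmest probes were higher there, by 0.44 and 0.47. Relative to the 75th percentile of each array, the 8 brighter probes were lower by 0.45 to 0.80. The share of probes well above background was 43.6% to 53.2% on the F + HFD arrays and 44.3% to 56.5% on the F(OVX) + HFD arrays, with F + HFD replicate 2 the dimmest array. The correlation of log2 signal was 0.955 to 0.980 between F + HFD arrays, 0.970 to 0.988 between F(OVX) + HFD arrays and 0.954 to 0.981 across the 2 groups. Muc2, the main secreted mucin of the colon, and Hoxb13, a homeobox gene of the distal colon, were well above background on all 8 arrays, as was the female-specific transcript Xist (9.37 ± 0.25 in F + HFD and 9.49 ± 0.12 in F(OVX) + HFD, SD over 4 arrays).

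Of 19712 genes tested, 612 (3.10%) were called, which means that they differed by at least 1.5-fold with an unadjusted p under 0.05 by limma. Among them 206 (1.05%) were higher and 406 (2.06%) were lower in F(OVX) + HFD than in F + HFD. No gene reached an adjusted p under 0.05 (limma, Benjamini-Hochberg), and the adjusted p of the called genes lay between 0.621 and 0.659. An unadjusted p under 0.05 was found for 1493 genes, where evenly spread p-values would give 986, but for 959 when the spread was estimated over all 24 arrays, which also brought the calls to 389. The t-test of the study's methods called 366 genes and also left 0 after adjustment, with 1439 under an unadjusted p of 0.05. The 4 arrays of one group lay wholly above those of the other for 888 genes (4.50%), and 217 of these were called as well. The count of calls was 953 when F + HFD replicate 4 was dropped and 488 when the dimmest array, F + HFD replicate 2, was.

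**Figure D1:**
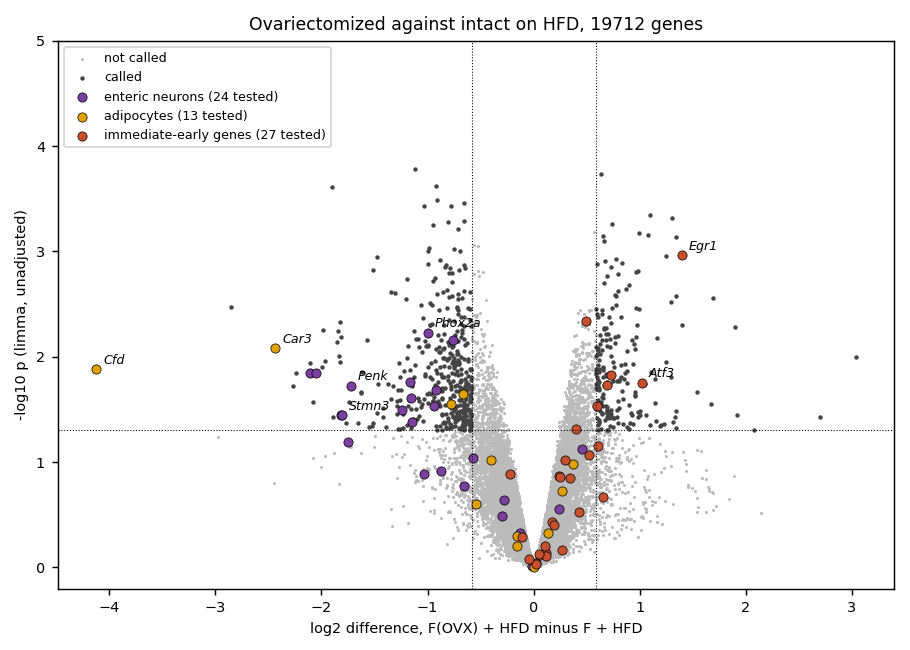
Each point is 1 of the 19712 genes tested, with the log2 difference of F(OVX) + HFD minus F + HFD on the horizontal axis and −log10 of the unadjusted limma p on the vertical axis, and dotted lines mark the 2 thresholds of a call. Enteric neuron and adipocyte genes are colored mostly on the left, immediate-early genes mostly on the right, and 406 genes lie past both lines on the left against 206 on the right.

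Of the named genes 9 stayed called in each of the 19 alternative settings run on them, which include the fits with a single array dropped. Egr1, Tnfrsf21, Ano7, Scin, 9030622O22Rik and Gm15738 were higher after ovariectomy, while Dkk3, Ptgis and Rspo3 were lower. Cfd, Car3 and Zfp982 stayed called in the 18 settings that tested them and were not tested where a signal well above background was required on all 8 arrays. Values below are normalized log2 signals of replicates 1 to 4 in order. Egr1, a zinc finger transcription factor that is switched on within minutes of a stimulus, read 9.81, 9.80, 8.97 and 9.25 in F + HFD and 10.42, 11.29, 11.32 and 10.39 in F(OVX) + HFD. The groups did not overlap, and the mean differed by 1.40 (2.63-fold, unadjusted p = 0.00108 and adjusted p = 0.621 by limma, exact permutation p = 0.0286, the smallest that 4 arrays against 4 can give). Scin, which codes for the actin-severing protein scinderin, read 11.72, 11.87, 11.41 and 11.69 in F + HFD and 12.74, 12.41, 12.72 and 12.01 in F(OVX) + HFD, again without overlap (difference 0.80, SE 0.19, unadjusted limma p = 0.00237, exact permutation p = 0.0286). Ano7, of the anoctamin family of membrane proteins, read 7.64, 7.58, 7.35 and 8.23 before 8.62, 8.85, 8.48 and 8.33, so that its highest F + HFD array stayed just under its lowest F(OVX) + HFD array (difference 0.87, SE 0.20, unadjusted limma p = 0.00227, exact permutation p = 0.0286). Tnfrsf21, a death receptor of the TNF receptor family, read 8.69, 7.35, 7.99 and 8.54 in F + HFD and 9.07, 9.08, 9.44 and 8.73 in F(OVX) + HFD (difference 0.94, SE 0.30, unadjusted limma p = 0.0117, exact permutation p = 0.0286). 9030622O22Rik, a transcript with no function known here, read 8.52, 8.03, 7.98 and 7.26 against 9.05, 9.45, 9.03 and 9.61 (difference 1.34).

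**Figure D2:**
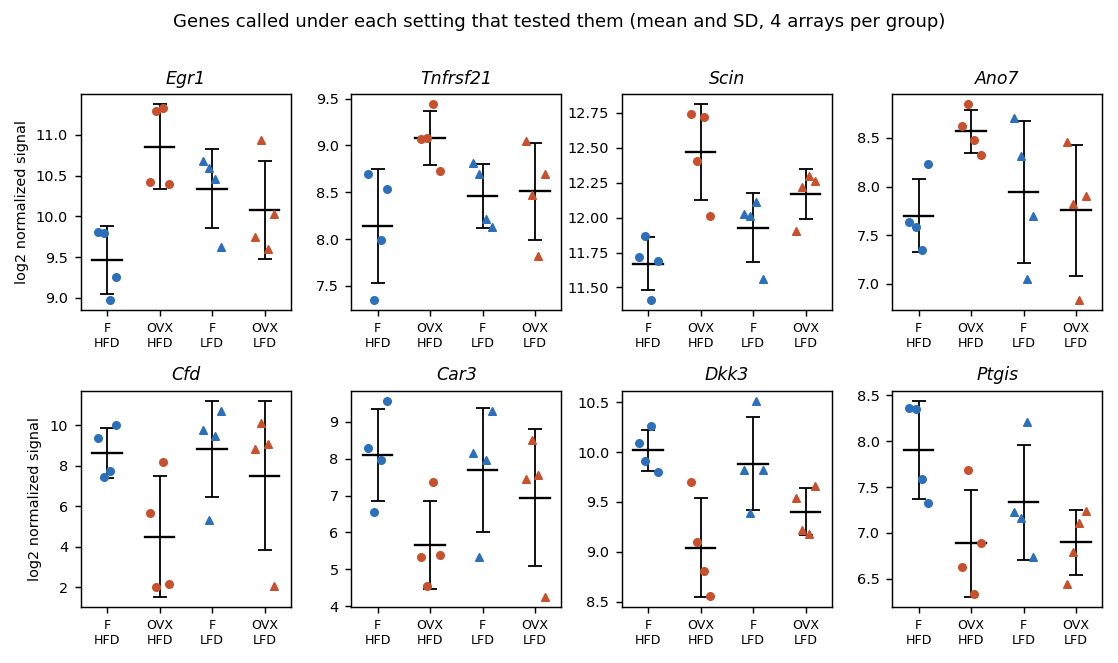
Normalized log2 signal (vertical axes) of 8 genes in the 4 female groups, with 1 point per array and bars for the mean ± SD of 4 arrays. For Egr1, Tnfrsf21, Scin, Ano7 and Dkk3 the F + HFD and F(OVX) + HFD points do not overlap, whereas 1 F(OVX) + HFD array lies among the F + HFD arrays for Cfd, Car3 and Ptgis.

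The 3 genes that stayed called on the lower side are all known from stroma or vessels. Dkk3, a secreted protein of the dickkopf family made by mesenchymal cells, read 10.09, 9.91, 10.26 and 9.80 in F + HFD and 9.70, 9.10, 8.80 and 8.56 in F(OVX) + HFD, without overlap (difference −0.97, SE 0.24, unadjusted limma p = 0.00311, exact permutation p = 0.0286). Rspo3, a Wnt-enhancing signal that stromal cells send to the crypt base, read 7.87, 8.04, 8.29 and 7.74 against 7.02, 7.86, 6.72 and 6.97, and the second F(OVX) + HFD array lay within the F + HFD range (difference −0.84, SE 0.25, unadjusted limma p = 0.00834, exact permutation p = 0.0571). Ptgis, the synthase of prostacyclin, a vasodilator made in vessel walls and smooth muscle, read 8.36, 8.36, 7.59 and 7.32 against 6.63, 7.69, 6.33 and 6.89, again with the second array inside the range (difference −1.02, SE 0.34, unadjusted limma p = 0.0153, exact permutation p = 0.0857). Zfp982, a zinc finger gene, read 6.27, 6.53, 5.69 and 5.63 against 4.91, 3.52, 3.92 and 4.17, but 3 of its 4 F(OVX) + HFD arrays were not well above background. It was tested through its F + HFD arrays alone, and the size of its change is poorly fixed, at −1.90 here and at −0.69 under normexp background correction.

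Other genes with a large change, no overlap and a signal above background on all 8 arrays made up most of the rest of the top 10 in each direction. On the higher side these were Prss30 (1.004), a serine protease, Gm15738 (0.98), Chst4 (0.93), a sulfotransferase of mucin-type sugars, Gm16325 (0.88) and Gm6329 (0.84), with log2 differences in brackets. Chst4 read 8.29, 7.57, 7.25 and 8.44 in F + HFD and 8.89, 8.76, 8.999 and 8.61 in F(OVX) + HFD. On the lower side, beside Dkk3, were Klf15 (−1.11), Zbtb16 (−0.99), Mtus2 (−0.98), Nsg2 (−0.96), Thsd7a (−0.95), Cntln (−0.95), Rdx (−0.94) and B3galnt1 (−0.93). A second probe gave −0.10 for Mtus2, −0.12 for Cntln and −0.34 for Rdx, so that the size of these changes depended on the probe.

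Klf15 and Zbtb16 are both transcription factors known to be induced by glucocorticoids, and both were lower after ovariectomy on HFD. Klf15, which also steers fasting metabolism, read 6.84, 6.83, 7.21 and 7.26 in F + HFD and 6.14, 5.53, 6.10 and 5.90 in F(OVX) + HFD (difference −1.11, SE 0.18, unadjusted limma p = 0.000164, exact permutation p = 0.0286, adjusted p = 0.621). Zbtb16, also called PLZF, read 9.22, 8.78, 8.43 and 8.73 against 7.41, 7.89, 7.86 and 8.05 (difference −0.99, SE 0.20, unadjusted limma p = 0.000931, exact permutation p = 0.0286). The groups of both genes stood apart without overlap. Hsd11b1, the enzyme that regenerates active glucocorticoid within tissues, read 8.10, 8.35, 8.59 and 8.31 against 7.73, 7.84, 7.83 and 7.999, a difference of −0.49 that was without overlap (SE 0.14, unadjusted limma p = 0.00612, exact permutation p = 0.0286) but short of 1.5-fold. Nr3c2, the mineralocorticoid receptor through which aldosterone acts on the distal colon, read 8.59, 8.97, 8.53 and 8.48 against 8.35, 8.25, 8.23 and 8.30, also apart and also under 1.5-fold (−0.36). Other genes induced by glucocorticoids, looked up after these values were seen, did not pass the test, with 0.01 for Fkbp5, −0.27 for Tsc22d3 and −0.06 for Per1, and the glucocorticoid receptor gene Nr3c1 differed by 0.04.

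Receptors for the ovarian hormones differed little between the groups. Esr1, which codes for estrogen receptor alpha, read 7.43, 6.91, 7.16 and 7.43 in F + HFD and 6.97, 7.47, 7.52 and 7.33 in F(OVX) + HFD, with the groups largely overlapping (difference 0.09). Esr2, for estrogen receptor beta, read 10.35, 10.76, 10.77 and 10.49 against 10.78, 10.61, 10.23 and 10.70 (difference −0.01). The membrane estrogen receptor gene Gper1 differed by 0.11. Pgr, the progesterone receptor gene and a classic estrogen target, was well above background on no array of either group. Of the 33 genes on the list of estrogen and steroid receptors and enzymes, 20 were tested and 0 were called, and their median log2 difference was 0.07 against 0.0065 for all genes tested. Esrra, an orphan receptor that drives mitochondrial genes, had a mean difference of 1.12 that rested on 1 array, since F + HFD replicate 2 read 8.96 while the other 7 arrays read 13.14 to 13.37. Of 36 genes known to respond to estrogen in other tissues, such as Greb1 (0.16), Igf1 (−0.19), Myc (0.58) and Wnt4 (−0.66), 29 were tested and 0 were called, 15 being higher and 14 lower, with a median of 0.02. Of all genes tested 3.10% were called. At that share lists of 20 and 29 genes may hold none, so the counts of 0 do not set them apart.

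Of all gene lists, enteric neurons held the most genes called lower. Of 30 enteric neuron genes 24 were tested, and 13 were called lower and 0 higher, where 2.06% of all genes were called lower. Of these 13, 5 were well above background on all 4 F + HFD arrays but not on all F(OVX) + HFD arrays, so that they entered the test through the group where they were high. Prph and Ret, given below, were among these 5. Their sizes are poorly fixed, at −2.55 to −1.01 for Prph and −1.21 to −0.43 for Ret over the settings. The count of genes called lower was 8 when signal was required on all 8 arrays, 5 by the methods' t-test and 4 with the spread estimated over all 24 arrays. The median log2 difference of the 24 was −0.97, with 22 below 0. Stmn3, a regulator of microtubules in neurons, read 9.52, 9.20, 7.90 and 7.71 in F + HFD and 5.33, 8.82, 6.86 and 6.08 in F(OVX) + HFD (difference −1.81, 3.51-fold, SE 0.73, unadjusted limma p = 0.0359, exact permutation p = 0.114). Prph, the intermediate filament peripherin, read 8.42, 8.29, 7.17 and 7.03 against 4.58, 8.12, 6.05 and 4.89 (−1.82). In both, replicates 1, 3 and 4 of F(OVX) + HFD lay under every F + HFD array and replicate 2 lay among them. Uchl1, an abundant deubiquitinase of neurons, read 11.47, 11.12, 10.24 and 9.84 against 8.95, 10.78, 9.25 and 9.09 (−1.15).

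Genes of the transmitters were lower as well. Penk, the precursor of enkephalins, read 10.58, 10.75, 9.56 and 9.59 in F + HFD and 6.79, 9.91, 8.64 and 8.24 in F(OVX) + HFD (difference −1.72, SE 0.60, unadjusted limma p = 0.0188, exact permutation p = 0.0857). Vip, the relaxant neuropeptide of inhibitory motor neurons, read 8.52, 8.91, 8.02 and 7.11 against 6.51, 7.63, 7.15 and 6.63 (−1.16, SE 0.40, unadjusted limma p = 0.0173, exact permutation p = 0.0857). Tac1, the precursor of substance P in excitatory neurons, read 10.62, 10.74, 10.02 and 10.62 against 9.54, 9.84, 9.43 and 10.16 (−0.76, SE 0.22, unadjusted limma p = 0.00692, exact permutation p = 0.0571). Of these Tac1 came nearest to separate groups, with 1 F(OVX) + HFD array above the lowest F + HFD array. Asic2, an acid-sensing ion channel of neurons that was not on the list, was well above background on 4 F + HFD arrays and 0 F(OVX) + HFD arrays, which puts it at least 1.26-fold lower, set against the lowest detectable signal. Other members of the list called were Elavl4 (−0.94) and Elavl3 (−2.11, with 1 F(OVX) + HFD array well above background), RNA-binding proteins of neurons, Phox2a (−1.0), the receptor tyrosine kinase gene Ret (−0.92), which enteric neurons need to develop, Hand2 (−1.24, also with 1 such array), a transcription factor of autonomic neurons, and Dbh (−1.16), which makes noradrenaline. Snap25 (−0.13), of the vesicle fusion machinery, and Th (0.24), the first enzyme of catecholamine synthesis, were not called. Of 14 genes for glia and GDNF receptors 2 were called lower and 0 higher, beside 2.06% of all genes called lower, with a median of −0.25. Among them Ngfr (−1.04), the low-affinity neurotrophin receptor, was called while Sox10 (−1.003), the glial transcription factor, was not.

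**Figure D3:**
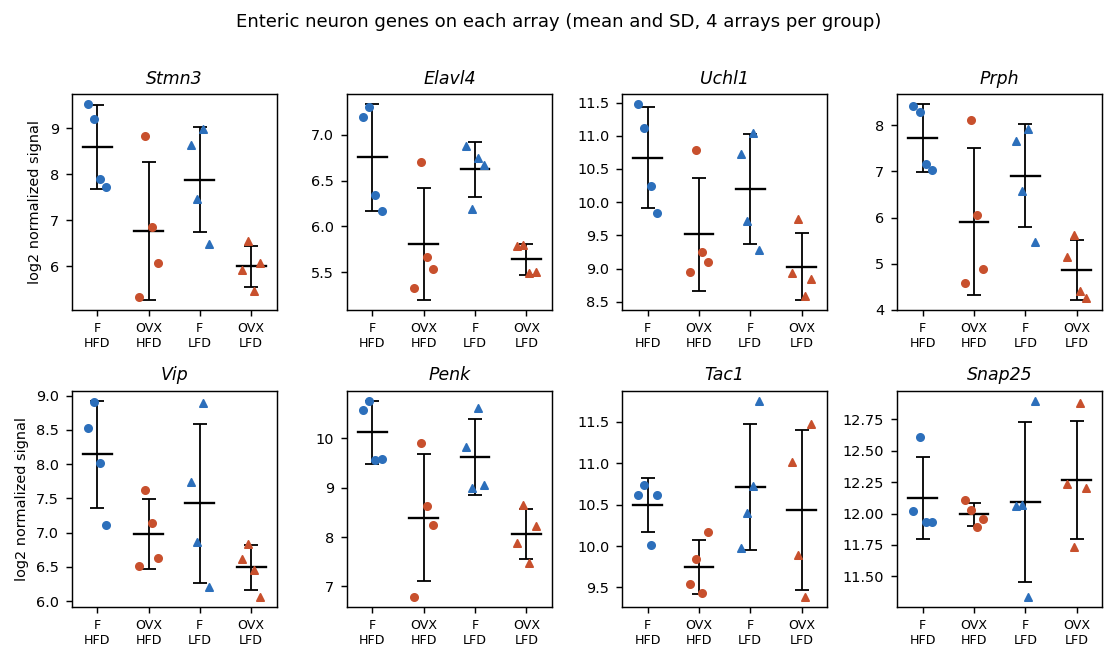
Normalized log2 signal (vertical axes) of 8 enteric neuron genes in the 4 female groups, with 1 point per array and bars for the mean ± SD of 4 arrays. For Stmn3, Prph, Uchl1 and Penk replicate 2 of F(OVX) + HFD sits near the F + HFD arrays and the other 3 below them, while Snap25 shows no such shift.

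The neuron count rested on several arrays. Without one F + HFD array the calls went from 13 to 5 without replicate 2, to 7 without replicate 1 and to 16 without replicate 4, and without one F(OVX) + HFD array they went to 7 without replicate 1, to 7 without replicate 3 and to 6 without replicate 4. The summed linear signal of the list ran from 18819.5 to 26232 on the F + HFD arrays and from 16321 to 21750.5 on the F(OVX) + HFD arrays, so that the sums overlapped. Chrna3, Calb2 and Npy, also on the list, were well above background on no array of either group.

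Muscle and matrix genes leaned the same way, with few calls. Of all 19712 genes tested 2.06% were called lower, and 9637 were below 0. Among 20 smooth muscle genes 19 were below 0 with a median of −0.47, but only Synpo2 (−0.83), an actin-bundling protein, and Cald1 (−0.66), the thin-filament protein caldesmon, were called. Myh11 (−0.68), Tagln (−0.40) and Des (−0.57), which code for the main contractile and filament proteins of smooth muscle, were not called. On F(OVX) + HFD replicate 2 the list lay above every F + HFD array, at 0.32 over the F + HFD mean, and on replicates 1, 3 and 4 it lay below them all, at −0.79, −0.65 and −0.77. Myh11, Tagln and Des were called once that array was left out. The summed signal of the list ran from 202836 to 290901 in F + HFD and from 141128 to 299564 in F(OVX) + HFD. The part of muscle RNA in the neuron values was not tested.

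Of 32 fibroblast and matrix genes 29 were below 0, with a median of −0.36, and 1 was called in each direction. Among all genes 1.05% were called higher and 2.06% lower. Fn1, the matrix protein fibronectin, was called lower (−0.59), and Ccn1, a matricellular protein that is also an immediate-early gene, was called higher (0.60). The fibrillar collagen genes Col1a1 (−0.56), Col1a2 (−0.48) and Col3a1 (−0.31) did not pass the test. Among 19 endothelial genes 1 was called lower, the transcription factor gene Erg (−0.83), and the median was −0.07. Myl1, a myosin light chain of striated muscle, read 6.42, 6.15, 5.44 and 5.56 in F + HFD and 4.62, 5.25, 4.70 and 5.19 in F(OVX) + HFD without overlap, and it was the single call among 7 skeletal muscle genes tested. Neither Erg nor Myl1 was tested where a signal well above background was required on all 8 arrays. Erg lost the call in 10 of the 18 settings that tested it. Dimmer probes of Myl1 gave −1.54 and 0.12.

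**Figure D4:**
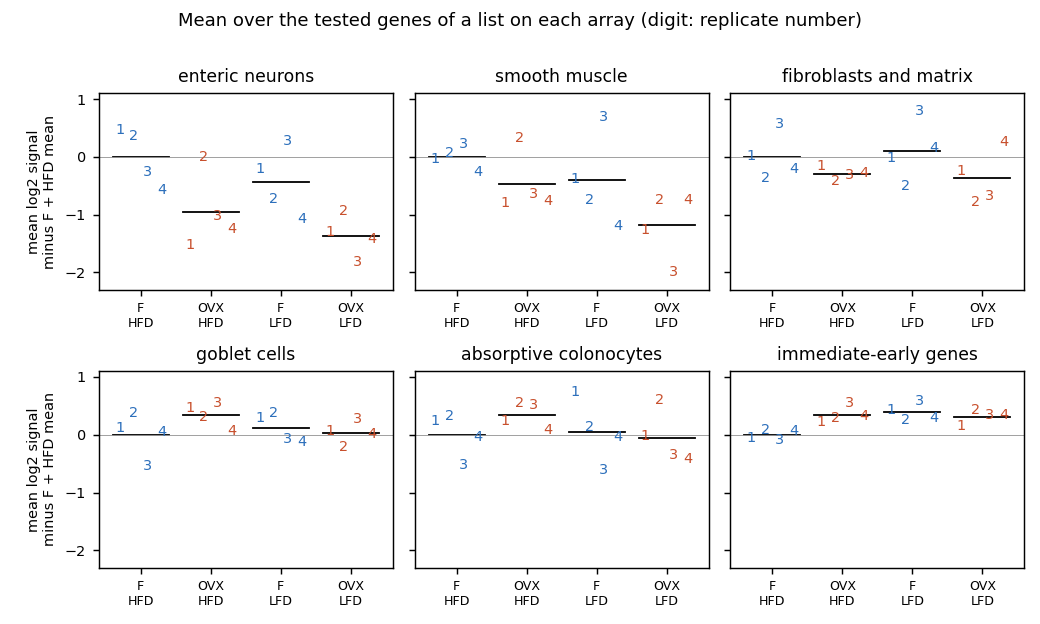
Mean normalized log2 signal of 6 gene lists on each array of the 4 female groups, relative to the F + HFD mean (vertical axes), with the digit giving the replicate and the line the group mean. Replicate 2 of F(OVX) + HFD stands above the other 3 for enteric neurons (0.00 against −1.52, −1.02 and −1.25) and smooth muscle (0.32 against −0.79, −0.65 and −0.77).

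Fat cell genes held some of the larger changes. Cfd, the complement protease adipsin that fat cells secrete, read 9.36, 7.44, 7.74 and 9.98 in F + HFD and 5.65, 2.02, 8.18 and 2.17 in F(OVX) + HFD, a difference of −4.13 or 17.5-fold (SE 1.33, unadjusted limma p = 0.0132, exact permutation p = 0.0857). Replicate 3 of F(OVX) + HFD lay among the F + HFD arrays, and 2 of the 4 F(OVX) + HFD arrays were not well above background, so the size of the change is poorly fixed, and it was −2.10 under normexp. A second Cfd probe differed by −3.81. Car3, the carbonic anhydrase of fat and muscle, read 8.30, 6.55, 7.97 and 9.56 against 5.34, 4.55, 7.37 and 5.38 (−2.44, 5.42-fold, SE 0.72, unadjusted limma p = 0.00832, exact permutation p = 0.0571), and the same replicate 3 was the high one. Of 13 adipocyte genes tested 4 were called lower and 0 higher, where 2.06% of all genes were called lower. Cfd and Car3 entered the test through F + HFD alone, and the count was 2 when signal was required on all 8 arrays. The other 2 were Adrb3 (−0.78), the beta-3 adrenergic receptor gene, and Slc2a4 (−0.66), for the insulin-responsive glucose transporter. The list as a whole was less uniform, with 5 members above 0, 8 below and a median of −0.15. Lep (0.13) and Fabp4 (−0.40), the genes for leptin and the fatty acid carrier of fat cells, were not called, and the adiponectin gene Adipoq, well above background on 2 arrays of each group, was not tested. The summed signal of the list overlapped between groups (9534 to 14244 in F + HFD and 9879 to 12495 in F(OVX) + HFD). The calls went from 4 to 2 without F(OVX) + HFD replicate 1, 3 or 4.

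Immediate-early genes, which respond to a stimulus before any new protein is made, held the most genes called higher of all lists. Of 27 tested, 24 were above 0 with a median of 0.27, and 5 were called higher and 0 lower, beside 1.05% of all genes called higher. These were Egr1 (1.40), Atf3 (1.02), Nr4a1 (0.73), Btg2 (0.70) and Ccn1 (0.60). Nr4a1, an orphan nuclear receptor also called Nur77, read 10.19, 10.25, 9.30 and 10.54 in F + HFD and 10.79, 10.79, 10.75 and 10.89 in F(OVX) + HFD, with no overlap (SE 0.24, unadjusted limma p = 0.0150, exact permutation p = 0.0286). Btg2, an antiproliferative gene, read 10.65, 10.92, 10.87 and 9.93 against 11.002, 11.15, 11.64 and 11.36, also apart. Atf3, a stress-induced repressor of the ATF family, read 8.26, 8.71, 7.49 and 8.29 against 9.13, 9.09, 10.07 and 8.54, and its lowest F(OVX) + HFD array lay under its highest F + HFD array (SE 0.35, unadjusted limma p = 0.0176, exact permutation p = 0.0571). Jund, a subunit of the AP-1 factor, read 14.65, 14.74, 14.64 and 14.86 against 15.21, 14.96, 15.39 and 15.32, apart but at 0.50 short of 1.5-fold. Fos, the partner of the Jun proteins and one of the fastest genes of the class, differed by only 0.11. The count fell to 3 without F + HFD replicate 3.

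Several immediate-early genes are switched on through the cAMP response element, whose core is TGACG, so the 250 bases before the start of the 4 called genes of the list other than Egr1 are printed to show where that core lies. They come from RefSeq on GRCm38.p6, 5′ to 3′ on the gene's strand, at chr15:101266596-101266845 (plus strand) for Nr4a1, chr1:134079156-134079405 (minus) for Btg2, chr1:191183334-191183583 (minus) for Atf3 and chr3:145649986-145650235 (minus) for Ccn1. Capitals mark TGACG or, on the other strand, CGTCA.
Nr4a1: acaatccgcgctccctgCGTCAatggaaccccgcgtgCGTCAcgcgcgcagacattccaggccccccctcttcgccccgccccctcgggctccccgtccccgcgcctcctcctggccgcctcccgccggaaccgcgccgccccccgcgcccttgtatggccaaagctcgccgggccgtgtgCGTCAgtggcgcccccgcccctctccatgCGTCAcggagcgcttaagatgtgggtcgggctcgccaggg
Btg2: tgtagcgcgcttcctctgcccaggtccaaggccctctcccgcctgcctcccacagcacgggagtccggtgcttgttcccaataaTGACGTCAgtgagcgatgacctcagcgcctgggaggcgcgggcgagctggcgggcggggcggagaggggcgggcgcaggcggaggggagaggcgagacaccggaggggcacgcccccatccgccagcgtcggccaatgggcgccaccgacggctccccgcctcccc
Atf3: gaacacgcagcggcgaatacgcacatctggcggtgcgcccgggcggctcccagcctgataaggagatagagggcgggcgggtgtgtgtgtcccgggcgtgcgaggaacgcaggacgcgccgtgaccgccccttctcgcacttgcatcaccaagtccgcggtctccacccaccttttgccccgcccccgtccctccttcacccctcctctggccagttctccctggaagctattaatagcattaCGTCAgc
Ccn1: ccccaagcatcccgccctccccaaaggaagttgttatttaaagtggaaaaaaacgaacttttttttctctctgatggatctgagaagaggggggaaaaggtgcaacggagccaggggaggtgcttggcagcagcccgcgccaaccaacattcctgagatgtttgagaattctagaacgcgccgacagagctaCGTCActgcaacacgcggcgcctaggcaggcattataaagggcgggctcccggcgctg

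The core was found 4 times before Nr4a1, 2 times before Btg2, where both copies overlap in the full palindrome TGACGTCA, and 1 time each before Atf3 and Ccn1. The shares that follow are from windows that also took in bases after the start, so they were longer than the stretches printed. Egr1 had no such window to search. On either strand TGACG occurred in 20.8% of 32851 RefSeq promoter windows, counted per window. Counted per gene, it occurred in 6228 of 27025 genes with a promoter. Among the 10458 tested genes that had a promoter to search, it occurred in 3563 (34.1%). It was in 14 of the 25 immediate-early genes so searched (56.0%), in 26.6% of the 79 genes called higher and in 35.8% of the 212 called lower. The consensus estrogen response element, GGTCA and TGACC with any 3 bases between them, was in the window of 20 of 27025 genes and of 0 of the 10458 genes tested. A match or its lack describes the letters of a short window and says nothing of binding.

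Epithelial genes leaned upward, with single calls, where 1.05% of all genes were called higher and 10075 of 19712 were above 0. Of 21 goblet cell genes 19 were above 0 with a median of 0.30, and 1 was called, the transcription factor gene Foxa3, which read 10.05, 9.57, 9.27 and 9.63 in F + HFD and 10.07, 10.30, 10.52 and 10.20 in F(OVX) + HFD (difference 0.64, SE 0.18, unadjusted limma p = 0.00696, exact permutation p = 0.0286) without overlap. Muc2 itself read 17.12, 17.12, 16.29 and 17.00 against 17.00, 16.94, 16.90 and 16.74 and differed by 0.02. Of 25 absorptive colonocyte genes 22 were above 0 with a median of 0.24, and Aqp8, the water channel of surface colonocytes, was the single call at 12.89, 13.51, 12.80 and 13.24 against 13.99, 13.31, 14.44 and 13.47 (0.69). F + HFD replicate 3 was the lowest array for both lists, at −0.54 for goblet cells and −0.52 for colonocytes relative to the F + HFD mean. Since the arrays are scaled to one distribution, a smaller share of wall RNA and a larger share of epithelial RNA cannot be told apart in these lists.

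Single genes of the cell surface and of transport were called, some with changes of over 1 on the log2 scale. Clca4a, of the calcium-activated chloride channel regulators, read 13.08, 12.15, 10.56 and 11.38 in F + HFD and 12.72, 13.01, 14.09 and 12.71 in F(OVX) + HFD (1.34). Its close relative Clca4b went the other way, at 6.48, 6.46, 7.38 and 8.57 against 6.39, 4.67, 6.41 and 6.37 (−1.26), and probes for such similar genes may share target, so both are uncertain. Cldn4, a tight junction claudin, was higher by 1.23. Slc10a2, the sodium-dependent bile acid transporter best known from the ileum, read 5.39, 6.20, 5.16 and 4.50 against 4.01, 3.23, 4.44 and 2.21, but 3 of its 4 F(OVX) + HFD arrays were not well above background. Its difference was −1.84 here and −0.46 under normexp, where it was not called. Of 30 ion and water transport genes tested 2 were called higher and 1 lower, beside 1.05% and 2.06% of all genes.

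Genes of lipid and drug metabolism held single calls, with 1 higher of 38 tested for xenobiotic metabolism, 1 higher of 31 for fatty acid oxidation and 1 higher and 1 lower of 38 for lipid synthesis, where 1.05% of all genes were called higher. Ces2b, a carboxylesterase that cleaves ester drugs and lipids, read 11.62, 11.60, 11.37 and 11.28 in F + HFD and 11.98, 12.26, 12.14 and 12.13 in F(OVX) + HFD, apart by a narrow and regular margin (0.66, SE 0.13, unadjusted limma p = 0.000717, exact permutation p = 0.0286). Of the xenobiotic genes 31 were above 0, with a median of 0.21. Creb3l3, a liver and gut transcription factor of triglyceride metabolism, read 9.33, 8.52, 7.56 and 8.48 against 9.33, 9.19, 9.997 and 10.36 (1.25). Dgat2, which makes triglyceride from diglyceride, read 12.65, 11.94, 11.69 and 12.48 against 12.48, 13.00, 12.91 and 13.11 (0.68). In the other direction Thrsp, a lipogenic gene induced by thyroid hormone, read 7.39, 7.51, 6.44 and 7.24 against 6.05, 6.21, 7.07 and 6.37 (−0.72). Tph1, the serotonin-making enzyme of enterochromaffin cells, was higher by 0.70, but its other probes gave 0.36 and −0.05. It lost the call in 9 of 19 settings. Among 21 enteroendocrine genes 1 was called higher and 2 lower, beside 1.05% and 2.06% of all genes. Vegfa, the vascular growth factor gene, read 9.17, 9.12, 9.38 and 9.78 against 9.95, 9.98, 10.16 and 9.93 (0.64), but its other probes gave 0.40, 0.03 and −0.19.

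Inflammatory and immune lists held few calls. Of all genes tested 3.10% were called, so lists this short may hold none, and the counts do not set them apart. Il1b, the cytokine interleukin-1 beta, read 6.32, 5.90, 5.86 and 7.26 in F + HFD and 8.02, 7.02, 7.76 and 6.57 in F(OVX) + HFD (1.01). Jchain, which joins the chains of secreted antibody, was lower by 0.73 on the log2 scale (−0.73), and Sdc1, syndecan-1 of plasma cells and epithelium, was higher by 0.59. No gene was called among 30 tested for T and NK cells, 22 for macrophages and monocytes (median −0.17), 40 interferon-stimulated genes (median 0.09) or 19 interferon-gamma-induced GTPases and related genes (median 0.00). Of 8 mast cell and eosinophil genes 0 were called, but their median of 0.60 was the highest of any list, with 6 of 8 above 0. The mean of the list, relative to the F + HFD mean, was −0.21 to 0.20 on the F + HFD arrays and −0.11, 0.40, 2.147 and 0.28 on the F(OVX) + HFD arrays, so that replicates 2, 3 and 4 lay above every F + HFD array. Replicate 3 was far above the rest, with Mcpt1 at 13.36 and Mcpt4 at 13.70 on F(OVX) + HFD replicate 3 against 7.50 to 9.16 and 8.08 to 9.46 on the other F(OVX) + HFD arrays.

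Proliferation and housekeeping genes were likewise uncalled, beside 3.10% of all genes called, a share that gives few calls in lists of this size. Of 41 cell cycle genes 36 were below 0 with a median of −0.25, and 0 were called, and Mki67 (−0.22) and Top2a (−0.13), standard markers of dividing cells, were close to the median. The spread within the groups was wide for this list, from −0.93 on F(OVX) + HFD replicate 4 to 0.62 on replicate 3. Neither 39 ribosomal protein genes nor 41 respiratory chain genes held a call.

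**Figure D5:**
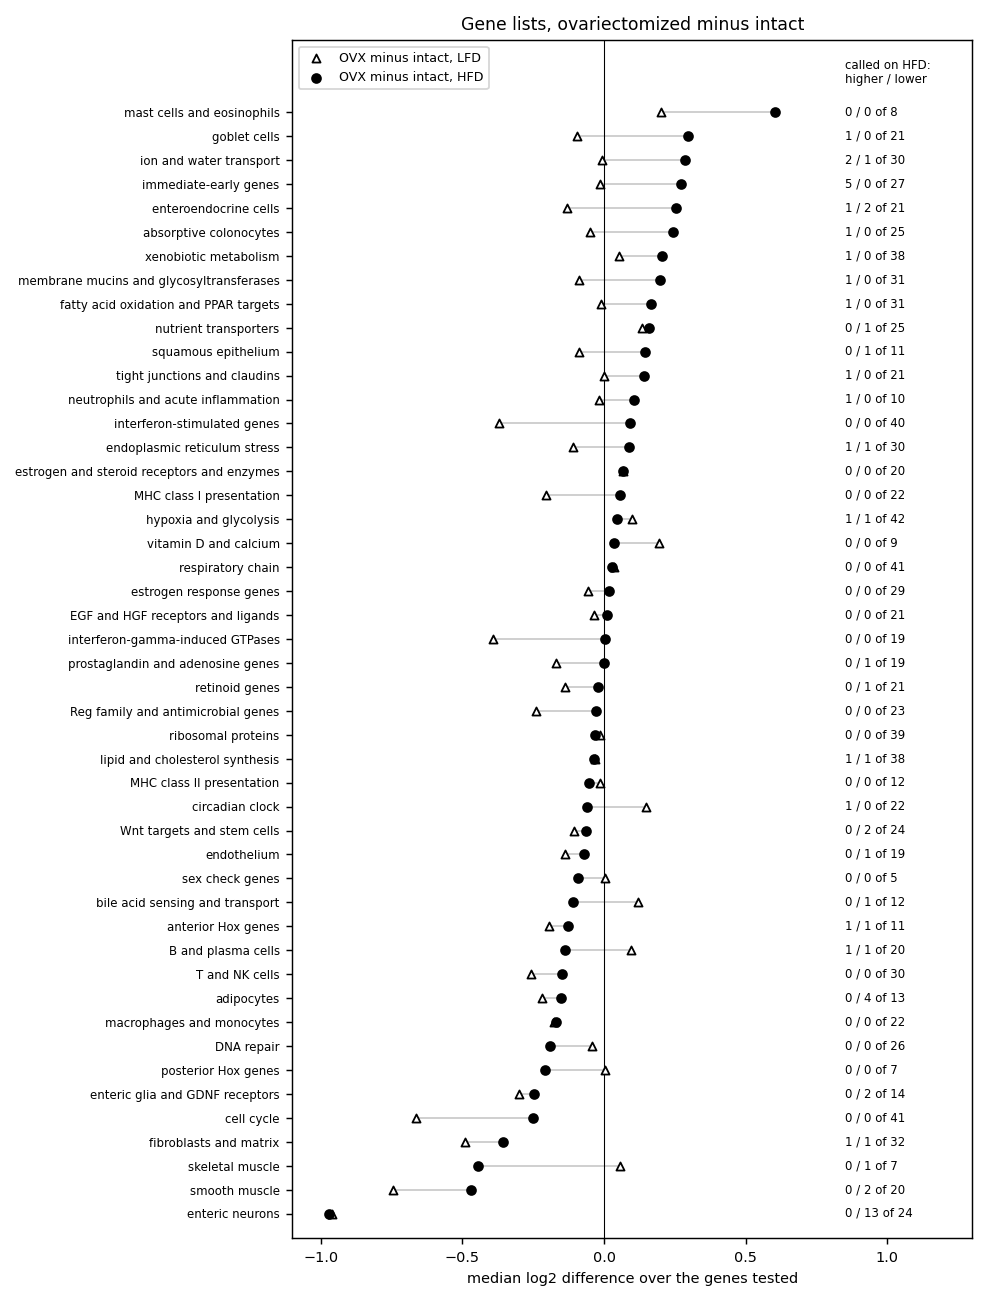
Median log2 difference (horizontal axis) of F(OVX) minus F for each gene list with 5 or more genes tested, on HFD (filled circles) and on LFD (open triangles), with the numbers called higher and lower on HFD at the right. Enteric neurons lie farthest to the left on both diets (−0.97 and −0.96), and the cell cycle list is lower on LFD (−0.66) than on HFD (−0.25).

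The same surgery was compared on LFD with 4 arrays a side, from the same pair of slides, so slide and surgery cannot be told apart there either. Of 22030 genes tested on LFD 424 were called, 105 (0.477%) higher and 319 (1.45%) lower, and 0 reached an adjusted p under 0.05 by limma. An unadjusted p under 0.05 was found for 639 genes, fewer than the 1102 that evenly spread p-values would give. The methods' t-test called 220. Calls on both diets numbered 56, all in the same direction, which is 9.15% of those on HFD and 13.2% of those on LFD. Neuronal genes were among these, with Prph at −1.82 on HFD and −2.05 on LFD, Stmn3 at −1.81 and −1.88, Penk at −1.72 and −1.56, Uchl1 at −1.15 and −1.16, Ret at −0.92 and −1.67, and Nsg2, a neuronal endosome protein, at −0.96 and −1.14. On HFD the values of Prph and Ret carry the limit on their signal given above. On LFD 10 of 22 enteric neuron genes were called lower, with a median of −0.96. Jchain was called lower on both diets (−0.73 and −0.59). The medians of smooth muscle (−0.47 on HFD and −0.74 on LFD) and of fibroblasts and matrix (−0.36 and −0.49) were also below 0 on both diets. Both of these lists had 0 calls on LFD. The immediate-early list was not lower on both diets, with a median of −0.02 and 0 calls on LFD, nor were goblet cells (−0.09) or colonocytes (−0.05). Conversely 13 cell cycle genes were called lower on LFD against 0 on HFD.

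Whether ovariectomy acted differently on the 2 diets was tested as an interaction in the 16 female arrays. A slide difference that is equal on both diets drops out of this test, but one that differs between them does not. On each slide the LFD arrays lay in row 1 and the HFD arrays in row 2, so diet and row cannot be told apart. Of 22132 genes 336 (1.52%) passed 1.5-fold and an unadjusted p under 0.05, and 0 passed after adjustment (limma, Benjamini-Hochberg). An unadjusted p under 0.05 was found for 462 genes, fewer than the 1107 that evenly spread p-values would give. No single gene is thus shown to differ between diets. Every adjusted p was 0.9998 or higher. The smallest unadjusted p of a gene with a symbol belonged to Zfp982, at −1.90 on HFD, with the limit on its signal given above, and 0.14 on LFD. Next came Zkscan14 (−0.47 and 0.34), Helz2 (0.55 and −0.44), Pkia, which was not tested on HFD, and Tspan12 (−0.47 and 0.20), and a second Helz2 probe gave −0.40 on HFD. Egr1 was higher by 1.40 on HFD and stood at −0.26 on LFD, a difference between diets of 1.66 ± 0.48 (SE). The immediate-early genes Nr4a1 (0.73 and −0.60, difference between diets 1.33 ± 0.40) and Ccn1 (0.60 and −0.68, difference 1.28 ± 0.43) had the same signs. Relative to the F + HFD mean, the mean of the immediate-early list was −0.10 to 0.09 on the F + HFD arrays and 0.21 to 0.56 on the F(OVX) + HFD arrays. It was 0.26 to 0.59 on F + LFD and 0.15 to 0.43 on F(OVX) + LFD. Every F + HFD array thus lay below those of the other female groups, intact mice on LFD included. Mtus2 was lower by 0.98 on HFD (−0.98) and at 0.47 on LFD. Clca4a was at 1.34 and −0.39 on the 2 diets and Thrsp at −0.72 and 0.30. S100g, the calcium-binding protein calbindin-D9k, which estrogen and vitamin D regulate in other organs, read 4.91, 6.82, 10.52 and 6.28 in F + HFD and 6.30, 3.22, 4.91 and 6.77 in F(OVX) + HFD. Its differences of −1.83 on HFD and 2.60 on LFD did not pass the test, and its F + HFD arrays alone spread over more than either. Klf15 was at −0.13 and Zbtb16 at 0.07 on LFD, and for Klf15 the difference between diets was −0.98 ± 0.50.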

How the data were processed

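RNA of the distal colon was measured in 24 mice, 4 per group. The study's methods give 5 animals per group for the arrays and the labels give 4. The authors labelled 100 ng of total RNA with Cy3, hybridized it to Agilent 1-color mouse arrays and read the scans with Feature Extraction 11.0.1.1. Linear spot intensities were deposited, corrected for background within each array but not normalized between arrays. Other deposited columns are flags of 0 or 1 for spots well above background, saturated or outlying. No column was left without a sample (0).

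The signal was log2-transformed without control spots and outlier spots, and quantile-normalized over the 24 arrays. Spots of one probe were averaged, giving 56605 probes, of which 32994 (58.3%) had a symbol through their accession in a gene table of GRCm38.p6. The brightest probe stood for a gene. Testing required that probe to be flagged well above background on every array of 1 or both groups. The arrays of each diet were fitted on their own (lmFit and eBayes, limma 3.58.1, R 4.3.3), and the interaction on the 16 female arrays. Calls used the fold (1.5) and p (0.05, unadjusted) that the study's methods set, and Benjamini-Hochberg adjustment was over all genes tested. Exact permutation tests used all 70 assignments and were two-sided. Each array is labelled as a sample of its own, and the methods of the study speak of separate animals. On data simulated with 200 of 19712 genes changed 4-fold, the comparison on HFD called 97.5% of them, 85.5% at an adjusted p under 0.05, and called 385 unchanged genes. The simulated noise was independent for each gene and array, with no shift shared by the genes of an array or slide. These rates do not carry over to arrays with such shifts or to changes smaller than 4-fold.

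Genes named were the 10 largest changes in each direction among called genes without overlap that were well above background on all 8 arrays, called genes measured in 1 group only, all members of the steroid receptor and enzyme list and sex-linked genes, up to 4 members of each list with the smallest p, the 5 smallest interaction p-values, and Muc2, Gfra3, Thrsp, S100g and Hoxb13. The genes Fkbp5, Tsc22d3, Per1, Adipoq, Nr4a1, Btg2, Fos, Elavl4, Uchl1, Stmn3, Prph, Vip, Penk, Dbh, Hand2, Snap25, Th, Myh11, Tagln, Des, Lep, Fabp4, Sox10, Mcpt1, Mcpt4 and Clca4b were added after their values were seen, as were the collagen, cell cycle and estrogen response genes given as examples. The comparison, its members and all gene lists were chosen with earlier results of these data known. Same-numbered arrays of the groups did not vary together, with correlations of −0.13, 0.34, −0.25 and 0.02 for replicates 1 to 4, so the arrays were not treated as pairs. Promoter sequence came from RefSeq. A few genes that the rule names are not reported here.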

Additional observations from a re-analysis of the deposited data

Results flagged for a closer look

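In groups of 4 arrays, 1 array was checked for standing far from the other 3, in 204 pairs of a named gene and a group and 22 pairs of a gene list and a group, by Dixon's test at the 95% level. Chance gives about 1 such array in 20 groups, and 15 of the gene pairs had one. On F(OVX) + HFD replicate 2 these were Uchl1 (10.78), Ret (5.89), Synpo2 (10.26) and the mean of the smooth muscle list (11.97), each above the other arrays of the group, and Clca4b (4.67), below. On F + HFD replicate 3 these were Muc2 (16.29), Cntln (7.13), Rdx (9.62) and Fabp4 (10.76). On F + HFD replicate 4 they were Elavl3 (4.63) and Hoxa5 (7.23), and on F + HFD replicate 2 Esrra (8.96) and Snap25 (12.61). The others were Fabp4 on F(OVX) + HFD replicate 1 (10.67), Fkbp5 on replicate 3 (11.11) and Gm15738 on replicate 4 (7.69). Values are normalized log2 signals.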

How the results depend on the processing

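The main setting gave 612 calls on HFD, 424 on LFD and 336 for the interaction. In the same order normexp background correction gave 239, 160 and 165, and no filter on dim probes 1213, 829 and 715. A filter of well above background on all arrays compared gave 409, 218 and 203. The methods' t-test gave 366 on HFD and 220 on LFD, and a spread estimated over 24 arrays gave 389 on HFD. Leaving out 1 array gave 488 to 953 on HFD (953 without F + HFD replicate 4), 330 to 636 on LFD, and 226 to 582 for the interaction (226 without F + HFD replicate 2, 537 without F + HFD replicate 4, 557 without F + LFD replicate 3, 582 and 513 without F(OVX) + LFD replicates 1 and 4). The share of higher calls in the interaction went from 50% to 61.8% under normexp. Counts at an adjusted p under 0.05 by limma stayed at 0, except 1 gene on HFD without a filter, Galnt15, which was well above background on no HFD array. Enteric neuron genes called lower, 13, became 8 under normexp, 8 under the all-array filter, 5 by the t-test and 4 with the spread over 24 arrays, and 5 to 16 with 1 array left out. Adipocyte genes called lower, 4, became 2 under normexp and under the all-array filter, and 2 to 5 with 1 array left out. Immediate-early genes called higher, 5, became 2 with the spread over 24 arrays, and 3 to 6 with 1 array left out. The adipocyte median was −0.51 without F + HFD replicate 3. No named gene that was called changed direction in any setting. Some uncalled genes near 0 did, such as Fos (−0.17 to 0.39), Fkbp5 (−0.38 to 0.23), Per1 (−0.47 to 0.36) and Muc2 (−0.19 to 0.11). Of 72 named genes called, 9 stayed called in all 19 settings, 3 (Cfd, Car3 and Zfp982) in the 18 that tested them, 41 lost the call with some array left out and 31 by the t-test. With the replicate number as a block, which the labels do not show to pair the arrays, the calls were 638, 351 and 403. A block for the slide could not be fitted, since each surgery lies on its own slide, so no setting speaks to the slide. The number of arrays and signal over background limit what can be seen.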
